A study of Mus musculus with 18 samples.

Results

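Elastic fibre and basement membrane genes were examined in liver RNA-sequencing data from mice fed a diet that promotes non-alcoholic steatohepatitis (NASH), fatty liver with inflammation. The set held 10 genes of the 16245 in the count table, picked by name as rows of that table: Eln, Fbn1, Fbln2, Fbln5 and Mfap4 of the elastic fibre, Lamb1, Lamc1, Nid1 and Hspg2 of the basement membrane, and Fn1, which encodes fibronectin. These genes were chosen with earlier results of these data known, so counts of them that passed are not an independent test. All 18 samples were wild-type C57BL/6 male mice that were put on a NASH diet and housed at 29 °C from 8 weeks of age. One group received vehicle (n = 6) and another daily subcutaneous recombinant GDF15 (n = 6), a stress cytokine known to suppress appetite. Pair-fed mice (n = 6) were given the amount of food that GDF15-treated mice had eaten on the previous day. The dose given to each of these mice is not in the labels. Whole liver was sequenced, so fewer cells of a type and less RNA per cell cannot be told apart in any value below.

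Elastic fibres give vessels, portal tracts and scars their recoil. Elastin (Eln) is laid down on microfibrils built from fibrillin-1 (Fbn1), with the help of fibulin-5 (Fbln5), fibulin-2 (Fbln2) and the microfibril-associated glycoprotein Mfap4, and is then cross-linked by lysyl oxidases. Basement membranes are sheets in which a laminin network (Lamb1 and Lamc1 encode its β1 and γ1 chains) is tied to a type IV collagen network by nidogen-1 (Nid1) and the heparan sulphate proteoglycan perlecan (Hspg2). The healthy liver sinusoid lacks a continuous basement membrane, and both kinds of structure accumulate in liver fibrosis, where stellate cells and portal fibroblasts are major sources of matrix. Fibronectin is different in origin, as hepatocytes secrete most of the plasma form.

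The genes lie at separate loci on 8 chromosomes of GRCm38 (GENCODE vM21), and the sites of those the results turn on are as follows. Nid1 spans chr13:13437551-13512269 on the plus strand, Fbn1 chr2:125300594-125507993 and Eln chr5:134702593-134747323 on the minus strand, and Fn1 chr1:71585520-71653200 on the minus strand. Lamc1 lies on the same chromosome as Fn1, and Lamb1 on the same chromosome as Fbln5. Of the 10 genes, 7 overlap another annotated gene and 6 overlap one on the other strand. The library kit kept strand, but the strand setting of the quantification is not given in the sources used here, so reads of these partners could be shared.

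Promoter sequence (250 bases before to 50 bases after the start) was matched by symbol in RefSeq (GRCm38.p6) for 6 of the 10 genes, with 7 entries because Fbln5 has 2 starts. Eln, Mfap4, Lamc1 and Fn1 had no entry. Promoters are shown for Nid1 and Fbn1, which had the largest falls among the matched genes, and for Hspg2, which had the smallest, with the GC box (GGGCGG or its complement) in capitals.
Nid1 (chr13:13437352-13437651, plus strand): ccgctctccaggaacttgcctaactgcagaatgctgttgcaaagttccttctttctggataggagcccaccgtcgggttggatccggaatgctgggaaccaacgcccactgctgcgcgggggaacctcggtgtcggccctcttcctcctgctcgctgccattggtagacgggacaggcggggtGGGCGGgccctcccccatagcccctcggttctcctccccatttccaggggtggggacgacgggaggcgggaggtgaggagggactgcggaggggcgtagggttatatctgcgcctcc
Fbn1 (chr2:125506389-125506688, minus strand): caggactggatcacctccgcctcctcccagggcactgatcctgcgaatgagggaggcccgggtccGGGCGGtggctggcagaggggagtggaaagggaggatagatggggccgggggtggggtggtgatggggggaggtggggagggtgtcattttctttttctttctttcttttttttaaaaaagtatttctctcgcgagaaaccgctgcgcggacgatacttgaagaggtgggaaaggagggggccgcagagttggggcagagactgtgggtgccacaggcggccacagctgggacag
Hspg2 (chr4:137468553-137468852, plus strand): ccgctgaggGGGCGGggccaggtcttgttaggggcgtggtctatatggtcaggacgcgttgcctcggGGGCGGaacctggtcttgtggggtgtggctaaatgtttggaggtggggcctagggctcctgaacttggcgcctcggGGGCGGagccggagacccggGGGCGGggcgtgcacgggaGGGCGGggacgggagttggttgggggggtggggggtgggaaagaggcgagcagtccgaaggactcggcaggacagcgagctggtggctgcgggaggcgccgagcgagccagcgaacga
The Nid1 and Fbn1 windows each held 1 GC box and the Hspg2 window held 5. A GC box was in 6 of the 7 windows, against 35.7% of 32851 promoters of the same length. None of the 7 windows held TATAAA (13.6% of promoters) or the AP-1 motif TGANTCA (7.81%), and 1 held the SMAD motif CAGACA (21.0%), each searched on both strands. These are matches of letters only.

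Libraries held 16508864 to 35301853 estimated counts. Levels below are counts divided by the size factor of the library (normalized counts), and per kilobase where genes are compared with each other. Fibronectin was by far the most abundant of the 10 transcripts. In vehicle-treated liver its level was 3781 ± 345 normalized counts per kilobase of the longest coding transcript (SD, n = 6), followed by Nid1 at 157 ± 48.8 and Lamc1 at 74.3 ± 8.59. Lamb1 at 55.2 ± 9.55, Hspg2 (34.2 to 63.5, lowest to highest) and Eln at 44.7 ± 20.2 per kilobase came next, and neighbours from Lamc1 to Mfap4 in this order overlapped in range. Fbln5 (31.8 ± 4.48) and Mfap4 (30.8 ± 7.18) lay above Fbln2 (17.9 ± 4.16) and Fbn1 (11.1 ± 4.41). With GDF15 the level of Nid1 was 46.6 ± 4.05 per kilobase, within the range of Lamc1 at 47.1 ± 3.03, whereas the ranges of these genes did not overlap in vehicle-treated liver. The order in pair-fed liver was the same as with vehicle, but the ranges of Nid1 (87.5 to 182.6) and Lamc1 (55.6 to 90.7) overlapped there too.

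GDF15-treated liver was compared with vehicle-treated liver to measure the whole effect of treatment, lower intake included. Of the 10 genes, 9 were lower and Fn1 was higher (DESeq2, adjusted p under 0.05), where 17.5% of all 14667 genes tested were lower and 15.8% higher. Eln, Fbn1, Mfap4 and Nid1 also passed the fold threshold of the study, a log2 fold change beyond 1, against 5.37% of genes that were lower by that rule. The median log2 fold change of the 10 genes was −0.89, beside 0.00 for all genes tested. Against pair-fed liver, which takes matched intake into account, 8 were lower and Fn1 was higher, where 13.8% of 14353 genes were lower and 13.3% higher. Here Eln, Fbn1 and Nid1 passed the fold threshold, as did 2.75% of genes in that direction, and the median was −0.67 beside 0.00 for all genes. Both comparisons use the same GDF15 samples. All 6 GDF15 samples lay below all 12 others for 4 of the 10 genes (Fbn1, Lamb1, Lamc1 and Nid1), a pattern shown by 3.39% of all genes, and above all 12 others for 0 of 10, beside 2.94% of all genes.

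**Figure D1:**
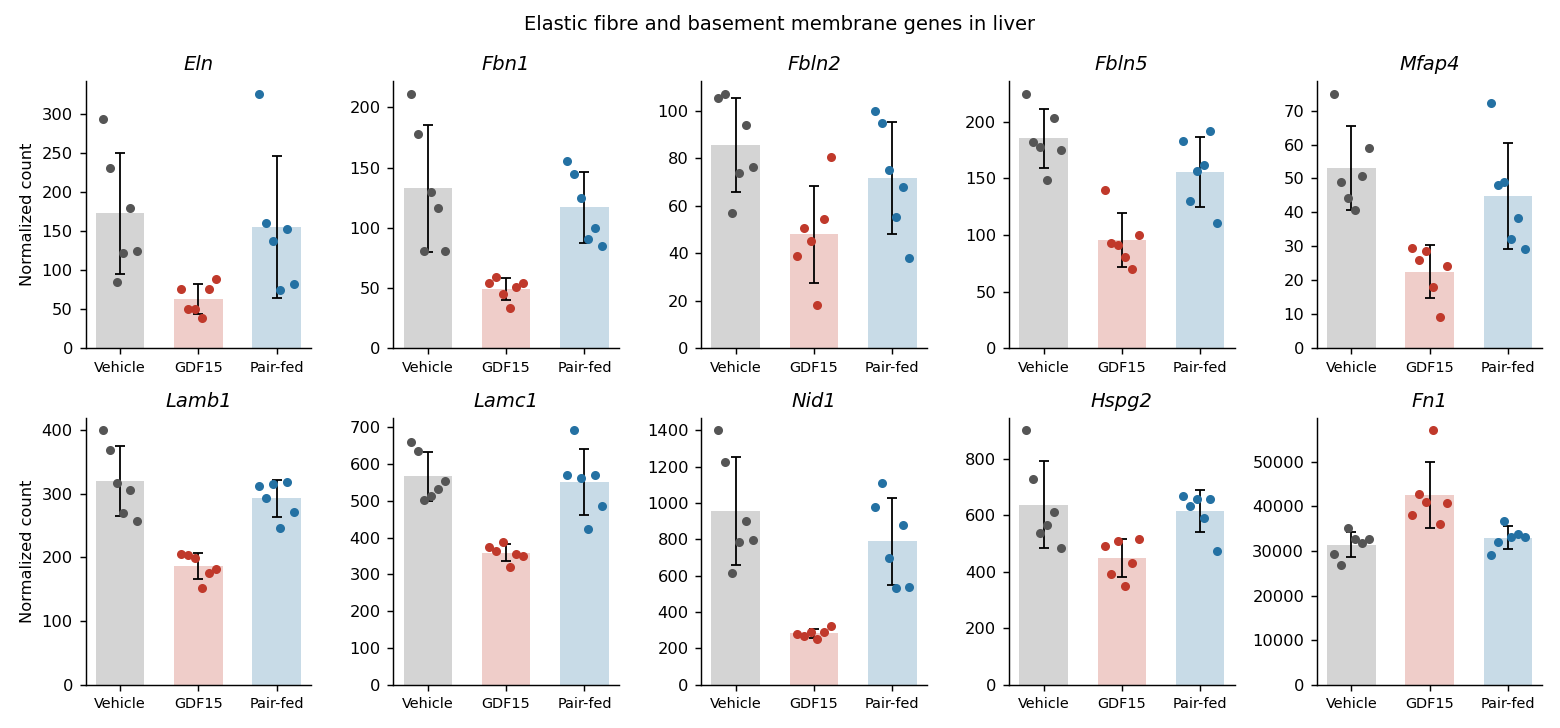
Normalized counts of the 10 genes in each liver (points), with group means (bars) and SD (error bars), for vehicle, GDF15 and pair-fed mice, each y axis starting at 0. Nid1 lay between 253 and 324 in all 6 GDF15 samples, under every other sample, whereas Fn1 was higher with GDF15, with 57007 in replicate 4.

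Elastin was among the genes that fell most. Normalized counts of Eln were 85.0, 152 and 293 (lowest, median and highest) with vehicle, 38.5, 63.0 and 88.0 with GDF15, and 74.2, 145 and 325 in pair-fed liver. The GDF15 range overlapped the lower end of both others, and spread was wide in the control groups. The log2 fold change was −1.45 (SE 0.34, adjusted p = 0.000154) against vehicle, a 2.74-fold lower level, and −1.30 (SE 0.34, adjusted p = 0.00108) against pair-fed. The pair-fed value rests in part on replicate 1 of that group, without which it was −0.94 (adjusted p = 0.0116), short of the fold threshold.

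Fibrillin-1, the backbone of the microfibril, separated the groups fully. Fbn1 was at 80.3, 123 and 211 normalized counts with vehicle, 33.4, 52.2 and 58.9 with GDF15, and 84.9, 113 and 155 in pair-fed liver. No GDF15 sample reached the lowest sample of the other groups. Its log2 fold change was −1.43 (SE 0.24, adjusted p = 8.22e-08) against vehicle and −1.23 (SE 0.24, adjusted p = 6.72e-06) against pair-fed. Mfap4, whose product binds microfibrils and elastin, had the fewest counts behind its values, at 40.7, 49.9 and 75.0 with vehicle, 9.09, 25.0 and 29.5 with GDF15, and 29.1, 43.2 and 72.2 in pair-fed liver. All GDF15 samples were below all vehicle samples, and the highest of them just overlapped the lowest pair-fed sample. Mfap4 fell by 1.22 on the log2 scale against vehicle (SE 0.26, adjusted p = 4.01e-05) and by 0.95 against pair-fed (SE 0.26, adjusted p = 0.00231).

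The fibulins changed less. Fbln5, which tethers elastin to cells and microfibrils, was at 149, 180.2 and 225 normalized counts with vehicle, 70.1, 92.0 and 139.5 with GDF15, and 111, 159 and 192 in pair-fed liver. GDF15 samples lay wholly below vehicle samples and overlapped the pair-fed range. Its log2 fold change was −0.94 (SE 0.16, adjusted p = 2.88e-07) against vehicle and −0.69 (SE 0.16, adjusted p = 0.000372) against pair-fed. Fbln2 had the highest adjusted p of the 9 genes that fell, and was at 57.0, 85.4 and 107 with vehicle, 17.98, 47.8 and 80.8 with GDF15, and 37.8, 71.4 and 100.2 in pair-fed liver, with overlap throughout. It fell by 0.84 against vehicle (SE 0.27, adjusted p = 0.00913), and its log2 fold change of −0.57 against pair-fed did not pass (95% interval −1.11 to −0.04, adjusted p = 0.103). That comparison passed without GDF15 replicate 6, the highest GDF15 sample (−0.78, adjusted p = 0.0196), or without pair-fed replicate 6, the lowest pair-fed sample (−0.71, adjusted p = 0.0283). It did not pass when each of the 16 other samples was left out in turn, and the smallest change was −0.41, without GDF15 replicate 4, the lowest GDF15 sample (adjusted p = 0.226).

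In the basement membrane set, nidogen-1, the linker between laminin and type IV collagen, had the largest fall of all 10 genes. Nid1 was at 616, 848 and 1399.8 normalized counts in vehicle-treated, 253, 284 and 324 in GDF15-treated and 533, 789 and 1112 in pair-fed liver. The GDF15 samples were tightly grouped, with a coefficient of variation of 8.69% against 31.2% with vehicle and 30.2% in pair-fed liver, and stood apart from all others. The level was 3.36-fold lower than with vehicle (log2 fold change −1.75, SE 0.20, adjusted p = 3.43e-16) and 2.78-fold lower than with pair-feeding (−1.47, SE 0.20, adjusted p = 1.39e-11).

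The laminin chains fell by less, with full separation. Lamb1 was at 258, 311 and 399 normalized counts with vehicle, 152, 190.3 and 205 with GDF15, and 246, 303 and 318 in pair-fed liver. Lamc1 was at 503, 543 and 658 with vehicle, 321, 359.7 and 388 with GDF15, and 424, 566 and 691 in pair-fed liver. For both chains every GDF15 sample was below every other sample. Lamb1 fell by 0.78 on the log2 scale against vehicle (SE 0.12, adjusted p = 1.40e-09) and by 0.64 against pair-fed (SE 0.12, adjusted p = 8.80e-07). Lamc1 fell by 0.66 against vehicle (SE 0.11, adjusted p = 2.09e-08) and by 0.61 against pair-fed (SE 0.11, adjusted p = 2.60e-07). Perlecan had the smallest fall. Hspg2 was at 485, 589 and 901 in vehicle-treated, 349, 461 and 516 in GDF15-treated and 475, 647 and 669 in pair-fed liver, and the GDF15 range overlapped both others. Its log2 fold change was −0.51 (SE 0.14, adjusted p = 0.00205) against vehicle and −0.45 (SE 0.14, adjusted p = 0.00823) against pair-fed.

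Fibronectin moved the other way. Fn1 was at 26957, 32236 and 35113 normalized counts in vehicle-treated, 36097, 40806 and 57007 in GDF15-treated and 29053, 33147 and 36787 in pair-fed liver. Every GDF15 sample was above every vehicle sample, and 1 pair-fed value lay above the lowest GDF15 value. Fn1 rose by 0.44 on the log2 scale against vehicle (SE 0.10, adjusted p = 6.75e-05) and by 0.37 against pair-fed (SE 0.10, adjusted p = 0.00129). Without GDF15 replicate 4, the highest sample, the values were 0.34 (adjusted p = 4.50e-05) and 0.27 (adjusted p = 0.00192). The rise also depends on scaling for its size. Dividing by total counts shifted the median of all genes by −0.17 against vehicle and −0.16 against pair-fed, and gave Fn1 log2 fold changes of 0.26 (adjusted p = 0.00442) and 0.20 (adjusted p = 0.0398).

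Pair-fed liver was compared with vehicle-treated liver to ask what lower intake alone changed. None of the 10 genes passed (DESeq2), and 0.0% of 16242 genes tested did. At an unadjusted p under 0.05 (DESeq2) the count was also 0, beside 718 of all 16242 genes. With the quasi-likelihood test of edgeR it was 0 at an adjusted p under 0.05, as for all genes (lowest adjusted p = 0.943). Log2 fold changes ran from −0.27 for Nid1 to 0.07 for Fn1, and the lowest unadjusted p (DESeq2) was 0.108, for Fbln5. Of the 10 changes 9 were below 0, with a median of −0.18 beside −0.005 for all genes tested. The 95% interval of the Nid1 change was −0.66 to 0.11 and that of Eln was −0.80 to 0.49, so falls up to these lower ends remain within the error of the comparison. For Lamc1 the interval was narrower, −0.25 to 0.16.

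**Figure D2:**
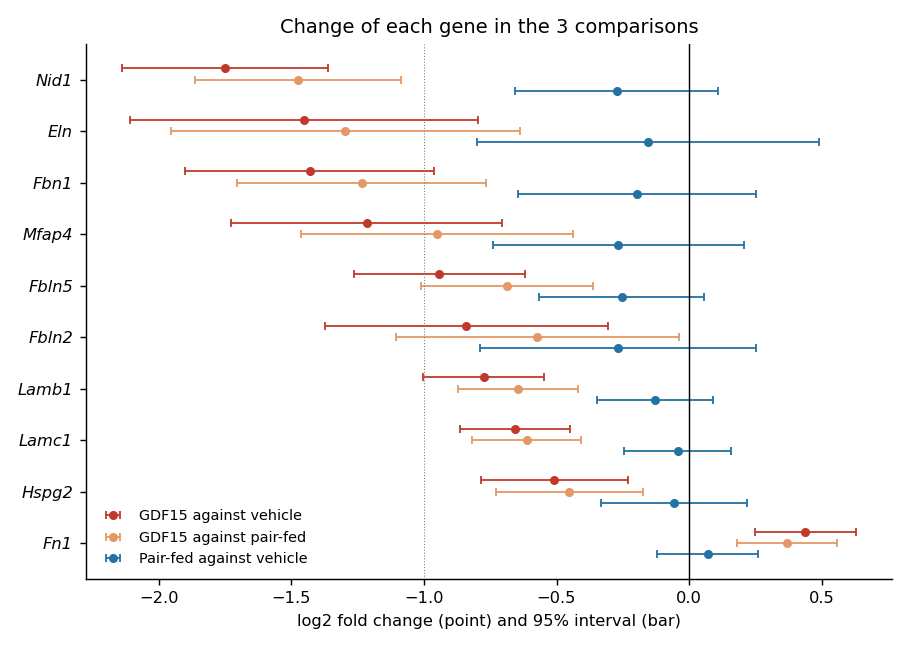
Log2 fold change of each gene (points) with its 95% interval (bars) in the 3 comparisons, with a solid line at 0 and a dotted line at −1. Nid1 is lowest at −1.75 against vehicle, Fn1 is the only gene to the right of 0 in both GDF15 comparisons, and all pair-fed against vehicle intervals include 0.

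Whether related genes moved by unequal amounts was tested as the log2 ratio of their normalized counts within each liver, with exact two-sided permutation tests adjusted over 15 tests (5 ratios in 3 comparisons). Nidogen-1 fell relative to nidogen-2 (Nid2), its paralogue in the same basement membranes. The Nid1/Nid2 log2 ratio was 2.38 ± 0.29 (SD, n = 6) with vehicle, 1.08 ± 0.50 with GDF15 and 2.12 ± 0.18 in pair-fed liver. All 6 GDF15 ratios lay below all vehicle ratios, and the difference was −1.30 (exact permutation p = 0.00216, the smallest this design allows, adjusted p = 0.0216). Against pair-fed it was −1.04 (exact permutation p = 0.00433, adjusted p = 0.0216), with 5 of 6 GDF15 samples below all pair-fed samples. Nid2 itself had a log2 fold change of −0.37 against vehicle (SE 0.22), which did not pass (adjusted p = 0.184). Per kilobase, Nid1 went from 157 with vehicle to 46.6 with GDF15, while Nid2 was at 36.9 and 28.6.

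Laminin β1 fell relative to laminin β2 (Lamb2), the chain that takes its place in other laminin trimers. The Lamb1/Lamb2 log2 ratio was 0.76 ± 0.26 with vehicle, 0.40 ± 0.11 with GDF15 and 0.80 ± 0.22 in pair-fed liver (SD, n = 6). The difference was −0.36 against vehicle (exact permutation p = 0.00433, adjusted p = 0.0216) and −0.40 against pair-fed (exact permutation p = 0.00866, adjusted p = 0.0325). Against pair-fed the call was lost (adjusted p = 0.0649) when any 1 of 8 samples was left out (GDF15 replicates 1, 4, 5 and 6 and pair-fed replicates 2, 4, 5 and 6), with differences of −0.47 to −0.35 over all left-out samples. For Eln/Fbn1, Fbln2/Fbln5 and Lamb1/Lamc1 no difference passed in any comparison (adjusted p from 0.373 to 0.909). The largest of these, −0.12 for Lamb1/Lamc1 against vehicle, was within the SD of the vehicle group, 0.16.

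**Figure D3:**
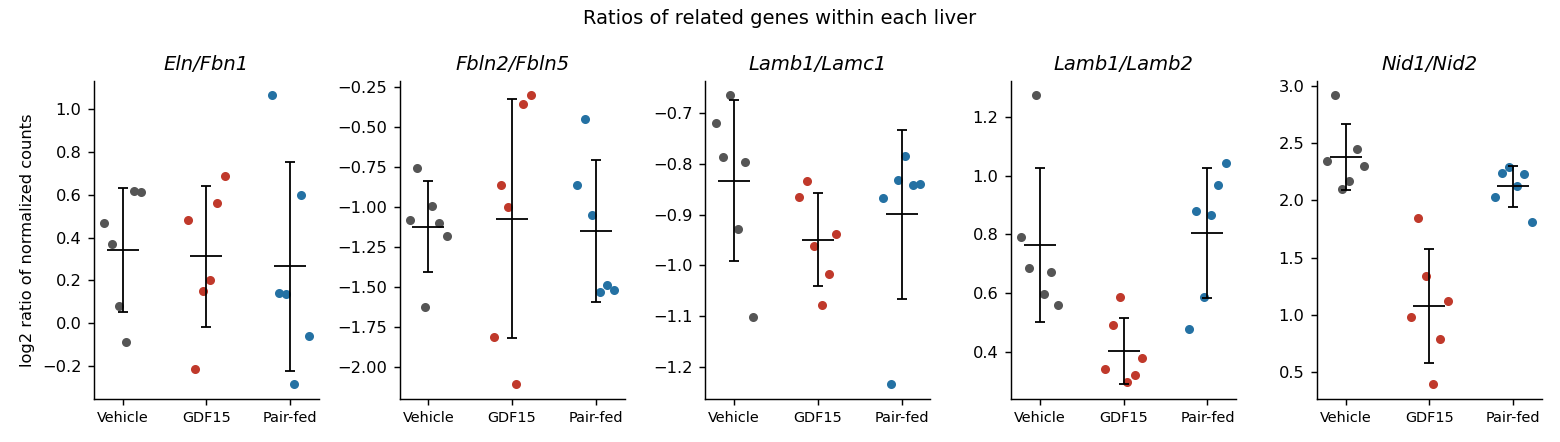
Log2 ratio of 2 related genes in each liver (points) with group mean (horizontal mark) and SD (bar), with a separate y axis for each pair. Nid1/Nid2 falls from 2.38 with vehicle to 1.08 with GDF15 and Lamb1/Lamb2 from 0.76 to 0.40, whereas the Eln/Fbn1, Fbln2/Fbln5 and Lamb1/Lamc1 points of the groups intermix.

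Covariation between mice of a group was measured after removing group means (log2 of normalized count + 1, 18 livers, 45 pairs of genes, permutation within groups). Every liver contributes all 10 values with 1 size factor, so anything particular to a library enters all pairs. Among the 36 pairs without Fn1, all r were above 0, from 0.24 to 0.87 with a median of 0.63, and 28 passed after adjustment over 45 pairs. The share of other gene pairs that would pass was not computed, so this count is not shown to be particular to these genes. Lamc1 and Nid1 had the highest value (Pearson r = 0.87, Spearman rho = 0.87, permutation p = 0.00014 and 0.00021, adjusted p = 0.000900 and 0.00158), with r = 0.84 without the 2 samples farthest from the median of Lamc1. Within groups their r was 0.95 with vehicle, 0.32 with GDF15 and 0.91 in pair-fed liver. Eln and Nid1 were close behind (r = 0.87, rho = 0.89, permutation p = 0.00003 and 0.00001, adjusted p = 0.000562 and 0.000450), and Eln and Fbn1 had r = 0.82 (rho = 0.84, permutation p = 0.00009 and 0.00014, adjusted p = 0.000810 and 0.00126). Fbln5 was least tied to the rest, with r of 0.24 to 0.33 to Lamc1, Fbln2, Fbn1 and Nid1, none of which passed (adjusted p from 0.190 to 0.396).

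Fn1 varied against the others. All 9 of its r were below 0, from −0.70 to −0.11, and 6 passed, the lowest with Fbln2 (r = −0.70, rho = −0.64, permutation p = 0.00925 and 0.00569, adjusted p = 0.0173 and 0.0122). Within groups the r of these 6 pairs were −0.91 to −0.75 with vehicle and −0.80 to −0.63 with GDF15. In pair-fed liver they were weaker, −0.57 to −0.07. Without the 2 farthest samples the 28 positive pairs that passed had r of 0.34 to 0.87 and the 6 negative pairs −0.61 to −0.52. The same livers tended to be extreme for many of the 9 other genes. Vehicle replicate 1 was the highest of its group for 8 of 9, and GDF15 replicate 4 was the lowest for 7 of 9 and the highest for Fn1.

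**Figure D4:**
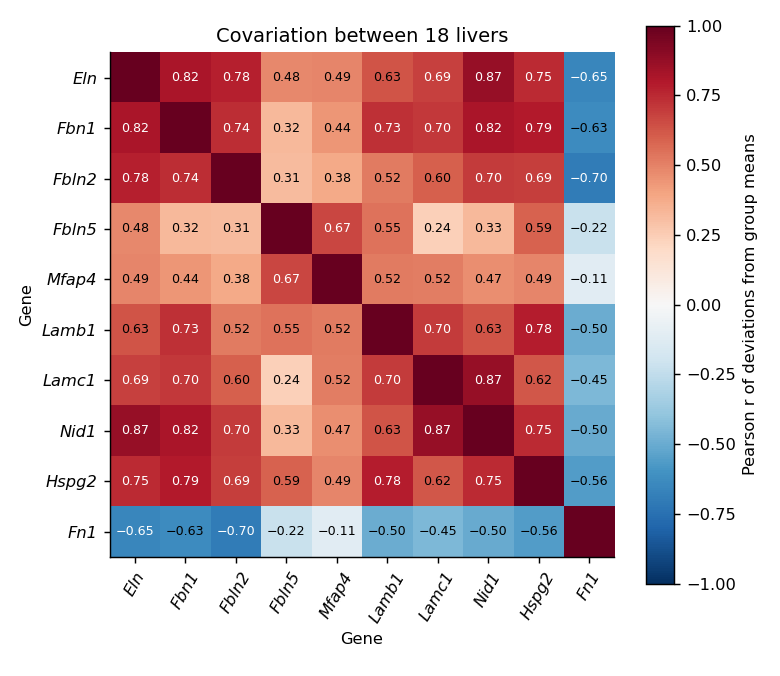
Pearson r (colour scale from −1 to 1, values printed) between genes over 18 livers after group means were removed. The block of 9 genes without Fn1 is positive throughout, highest for Lamc1 with Nid1 and Eln with Nid1 at 0.87, and the Fn1 row and column are negative.

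Genes with a pattern like that of a member were sought over the same deviations in 10874 genes whose mean normalized count reached 50, as a description. Npdc1 was most like both Fbn1 (r = 0.93) and Nid1 (r = 0.91), and Pkd2 was most like Eln (r = 0.91), each over 18 samples. The closest to Hspg2 was Sparc (r = 0.89), a collagen-binding matrix protein, and Flt1 was the closest to Fbln2 (r = 0.87). Lamc1 was most like Llgl1 (r = 0.88), Mfap4 was most like Alcam (r = 0.83) and Fbln5 was most like Gabra3 (r = 0.77). Fn1 was most like Ahsg (r = 0.89) and Pzp (r = 0.88), both genes of secreted liver plasma proteins.

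Other genes of the same structures were taken from 4 lists, whose counts are to be read against the shares of all genes given above (17.5% lower and 15.8% higher against vehicle, 13.8% and 13.3% against pair-fed). Of the 13 elastic fibre partners tested, 11 were lower than with vehicle and 0 higher (median log2 fold change −0.84), and 10 were lower than with pair-feeding. Loxl1, a lysyl oxidase that cross-links elastin, was at 146 ± 45.3 normalized counts with vehicle, 51.4 ± 18.1 with GDF15 and 107 ± 44.0 in pair-fed liver (SD, n = 6). It fell by 1.498 on the log2 scale against vehicle (SE 0.27, adjusted p = 7.46e-07) and by 1.04 against pair-fed (SE 0.27, adjusted p = 0.00120). The latent TGF-β binding proteins Ltbp3 and Ltbp1, which sit on microfibrils, fell by 1.04 and 0.84 against vehicle (adjusted p = 3.42e-05 and 1.60e-06). Efemp2, the fibulin-4 gene that elastic fibre assembly needs, fell by 0.77 (adjusted p = 1.92e-05).

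Among 22 basement membrane partners, 11 were lower and 1 higher than with vehicle (median −0.73), and 7 were lower and 1 higher than with pair-feeding (median −0.38). Col4a1 and Col4a2, the main type IV collagen chains, fell by 1.38 and 1.08 on the log2 scale against vehicle (SE 0.14 and 0.13, adjusted p = 4.01e-20 and 7.64e-14) and by 1.10 and 0.93 against pair-fed (adjusted p = 8.50e-13 and 2.05e-10). Col4a1 was at 1253 to 2307 normalized counts in vehicle-treated, 606 to 701 in GDF15-treated and 1087 to 1588 in pair-fed liver, with no overlap of GDF15 with either group. Sparc fell by 1.14 against vehicle (adjusted p = 6.06e-13) and Lamb3, a chain of epithelial laminin, fell by 0.80 (adjusted p = 3.89e-06). The gene that rose was Col18a1, named here after its values were seen, whose product is abundant in liver and holds endostatin. It rose by 0.27 against vehicle (SE 0.06, adjusted p = 3.31e-05).

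Laminin α chains that pair with β1 and γ1 gave a mixed picture. Lama2, Lama4 and Lama5 fell by 1.05, 0.66 and 0.80 against vehicle (adjusted p = 0.00151, 0.00846 and 0.00394) and had values of −0.63, −0.39 and −0.44 against pair-fed, where none passed (adjusted p = 0.0827, 0.162 and 0.159). Lama1 was at −0.03 against vehicle (adjusted p = 0.918). Lamb2 fell by 0.43 against vehicle (adjusted p = 0.02002) and was at −0.26 against pair-fed (adjusted p = 0.195).

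Of 19 matrix receptor genes tested, 9 were lower and 2 higher than with vehicle (median −0.27). Against pair-fed, 3 were lower, a share near the 13.8% of all genes, and 1 was higher. Itga8, an integrin chain of stellate and smooth muscle cells, fell by 1.16 against vehicle (SE 0.25, adjusted p = 2.88e-05), and Itga6, part of laminin receptors, fell by 1.02 (SE 0.23, adjusted p = 0.000125). Itga9 fell by 0.45 against vehicle (adjusted p = 0.0115). The syndecan gene Sdc4 rose by 0.67 against vehicle (SE 0.12, adjusted p = 2.36e-07) and by 0.90 against pair-fed (adjusted p = 2.68e-12).

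Of 16 genes of elastases, matrix proteases and their inhibitors, 9 were lower, 1 was higher and 6 did not pass against vehicle (median −1.11). Of 15 tested against pair-fed, 7 were lower and 1 higher. The gene that rose was an elastase, Cela1 (named after its values were seen), by 0.60 against vehicle (SE 0.16, adjusted p = 0.000869) and by 0.81 against pair-fed (adjusted p = 6.39e-06). Mmp12, the macrophage elastase, was at 119 to 338 normalized counts with vehicle, 24.7 to 89.3 with GDF15 and 157 to 357 in pair-fed liver, and fell by 2.30 against vehicle (SE 0.30, adjusted p = 1.67e-12) and by 2.26 against pair-fed (adjusted p = 5.25e-12). Mmp2, a gelatinase, fell by 1.29 against vehicle and Ctss, an elastin-cleaving cathepsin of macrophages, by 0.93 (adjusted p = 7.05e-06 and 2.08e-05). In the comparison of pair-fed with vehicle, 0 of the 71 genes in these lists passed with DESeq2 or edgeR. At an unadjusted p under 0.05 (DESeq2) there were 13, all lower in pair-fed liver, beside 718 of all 16242 genes.

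Markers of the cells that could supply these transcripts were counted in the same way, and their part in the results was not tested. Stellate cell markers were lower for 8 of 10 genes and higher for 1 against vehicle, with Pdgfrb at a log2 fold change of −0.90 and Cygb at −0.74 (adjusted p = 5.49e-07 and 9.44e-05), and 7 of 10 were lower against pair-fed. Their summed level was 4440.4 to 5991 normalized counts in vehicle-treated, 2859 to 4422 in GDF15-treated and 4861 to 5716 in pair-fed liver, so the GDF15 samples lay below all others. The median log2 fold change of these markers against vehicle was −0.52, beside −0.89 for the 10 genes described. Portal fibroblast markers were lower for 3 of 8 genes and not passed for 5 against vehicle, the 3 including Entpd2 (−1.27, adjusted p = 1.87e-15), with sums of 3052 to 5557 in vehicle-treated, 2194 to 6465 in GDF15-treated and 2973 to 4661 in pair-fed liver. The median sums were 4406, 2427 and 3593 in the same order, and Gas6 held 84.7% of the summed level. Against pair-fed, 2 of the 7 portal fibroblast markers tested were lower (median −0.39). Smooth muscle markers were lower for 1 of 7, near the share of all genes, and had a median of −0.11. Tagln fell (−0.98, adjusted p = 3.09e-05), Mylk, Myh11 and Cnn1 were at 0.12, 0.17 and 0.75 and did not pass (adjusted p from 0.245 to 0.736), and the sums were 2320.4 to 2844, 2182 to 2991 and 2224 to 2989 in the same order, with 85.8% of them from Mylk. Against pair-fed, 1 of 7 smooth muscle markers was lower and 5 lay below 0, with a median of −0.81. Pair-fed against vehicle had a median of 0.46 and none passed. In this list 2 genes had a mean under 10 normalized counts.

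Endothelial markers were lower than with vehicle for 1 of 10 genes, Lyve1 (−0.997, adjusted p = 1.46e-08). They were higher for 1, Clec4g (0.38, adjusted p = 0.0154, named after its values were seen). Both counts were below the shares of all genes, and the median was −0.12. In the comparison with pair-fed liver 2 of 10 were lower, beside 13.8% of all genes, and 0 higher. There 9 lay below 0, the median was −0.22 and Clec4g was at 0.05 (adjusted p = 0.827). Pair-fed against vehicle had a median of 0.21. Sums of the endothelial markers were 3290.4 to 4467.5 in vehicle-treated, 2539 to 4552 in GDF15-treated and 3678 to 4903 in pair-fed liver. Cholangiocyte markers were lower for 7 of 7 genes against vehicle and 2 of 7 against pair-fed, with sums of 2445 to 8928, 1053 to 2146 and 2208 to 6269, of which Spp1 held 87.8%. Macrophage markers were lower for 6 of 7 against vehicle and 4 of 7 against pair-fed, with sums of 2237 to 4069, 1502 to 3105 and 2195 to 3603. Mesothelial markers were lower for 2 of 5 against vehicle and 0 of 5 against pair-fed, with sums of 127 to 368, 85.7 to 311 and 60.2 to 309. Hepatocyte markers, which like Fn1 were higher with GDF15, passed for 7 of 8 genes in both comparisons, and Cps1 rose by 1.06 and Fgb by 0.73 against vehicle (adjusted p = 3.19e-10 and 8.38e-08). Their sums were 1532260 to 1998630 in vehicle-treated, 2272060 to 2664210 in GDF15-treated and 1399670 to 2209900 in pair-fed liver. In pair-fed against vehicle, cholangiocyte, macrophage and mesothelial markers lay below 0 for 7 of 7, 6 of 7 and 5 of 5 genes. Their medians there were −0.69, −0.16 and −0.72, beside −0.60, −0.49 and −0.01 for GDF15 against pair-fed. Stellate cell, portal fibroblast and hepatocyte medians for pair-fed against vehicle were −0.05, −0.11 and 0.01. None of these markers passed in that comparison. No marker in these 8 lists was at 0 in all libraries of a group.

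**Figure D5:**
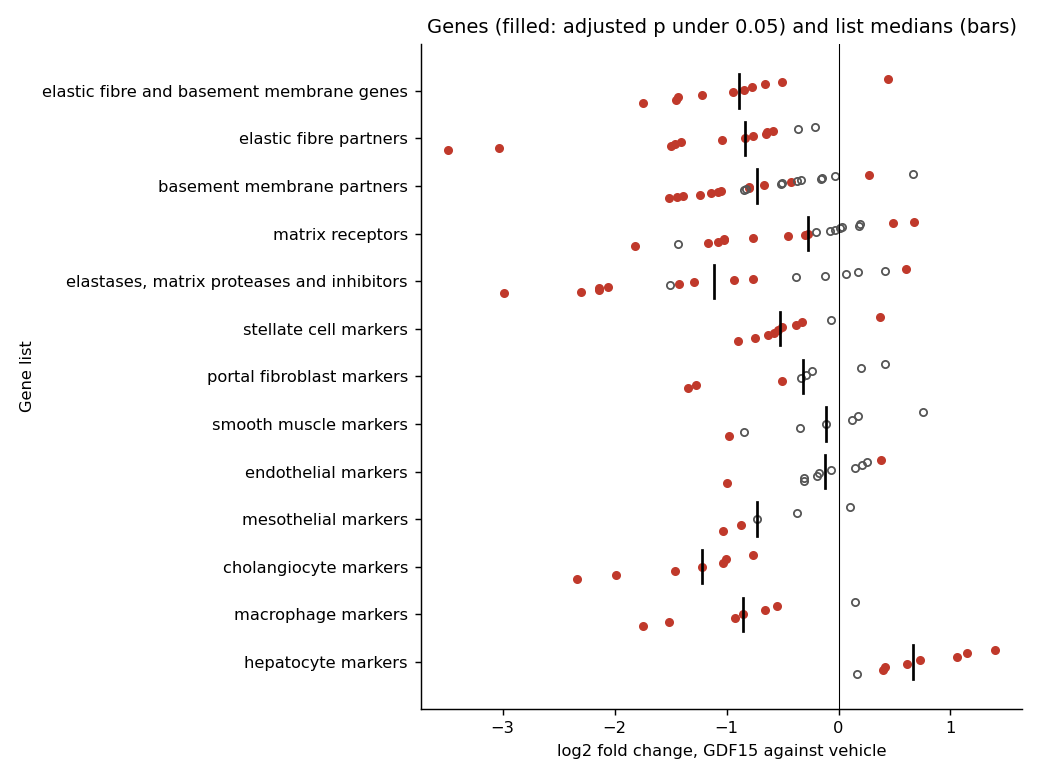
Log2 fold change of GDF15 against vehicle for each tested gene (points, filled where the adjusted p is under 0.05) in the 10 genes described and in each list of partners or markers, with the list median as a vertical bar. Medians lie at −0.84 for elastic fibre partners, −0.73 for basement membrane partners and −0.52 for stellate cell markers, and hepatocyte markers lie to the right of 0.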

How the data were processed

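Whole liver RNA from 18 mice was sequenced with a strand-keeping library kit (paired reads). The authors used Trim Galore for trimming and Salmon for quantification, with mm10 as the build (per the labels), and deposited a single table of estimated counts, unscaled whole numbers with 1 row per gene symbol. Software versions and the transcript set are not given in the sources used here. All 18 columns were used, and groups came from the sample titles. The smallest estimated count of a gene described was 7 (Mfap4), and sequencing reads without molecular identifiers give counting error as a lower bound on error.

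Counts were fitted with DESeq2 1.42.0 (R 4.3.3, all 18 samples, group as the only factor, median-of-ratios size factors, Wald test, independent filtering, Benjamini-Hochberg over all genes), the test named in the study's methods, with a call at adjusted p under 0.05, alone or with an absolute log2 fold change above 1. Alternatives were edgeR 4.0.16 (quasi-likelihood, TMM), other scalings, filters, sample sets and a replicate block. Ratios used normalized counts + 1 and all 924 assignments of 12 samples, and covariation used 100000 permutations. The procedure was tested on simulated data. Positions came from GENCODE vM21 and promoters from RefSeq.

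The genes and lists were chosen with earlier results of these data known. All 10 genes are named. From each list, the named genes are at most 4 with adjusted p under 0.05 against both groups and a mean normalized count of at least 50 (largest change first), the laminin α chains, Lamb2 and Nid2 above that count, and the most correlated genes per member. A few genes that this rule picks are not reported here. The labels do not say whether samples are separate litters or earlier cages, and by the study's methods mice were housed singly for treatment. P-values set group differences against the spread between these mice.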

Additional observations from a re-analysis of the deposited data

Results flagged for a closer look

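In 45 groups of 6 values (10 genes and 5 ratios in 3 groups), 4 held a sample whose gap to the nearest other value, as a share of the range of the group, was over the 95% limit of Dixon's test. Chance flags about 5% of groups.

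Eln was at 325 normalized counts in pair-fed replicate 1, where the other pair-fed samples were at 74.2 to 160.0. Fn1 was at 57007 normalized counts in GDF15 replicate 4, where the other GDF15 samples were at 36097 to 42817. The log2 ratio of Lamb1 to Lamc1 was −1.23 in pair-fed replicate 2, against −0.87 to −0.78 in the other pair-fed samples. The log2 ratio of Lamb1 to Lamb2 was 1.27 in vehicle replicate 3, against 0.56 to 0.79 in the other vehicle samples.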

How the results depend on the processing

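No member fold change against vehicle or pair-fed changed direction with GDF15 under any alternative run, and Nid1, Fbn1, Lamb1, Lamc1 and Fn1 passed in all of them. The number of genes past both thresholds was 4 against vehicle (4 to 5 when 1 sample was left out, 10 with no fold threshold) and 3 against pair-fed (2 to 4 when 1 sample was left out, 5 in replicates 1 to 3, 1 in replicates 4 to 6, 9 with no fold threshold). Pair-fed libraries 4 to 6 were larger (25047723 to 35301853 counts) than 1 to 3 (17180057 to 17926397). GDF15 libraries 4 to 6 were smaller (16508864 to 19108435 counts) than 1 to 3 (21050932 to 25001486), and the labels name no batch. In replicates 4 to 6 the Eln change against pair-fed was −0.60 (adjusted p = 0.248), and Fbln2 (−0.67) and Hspg2 (−0.36) against vehicle and Mfap4 (−0.94) and Hspg2 (−0.41) against pair-fed also lost their calls (adjusted p from 0.0605 to 0.272), which with 3 mice a group does not show a weaker change. In replicates 1 to 3 Fbln5 lost its call against pair-fed (adjusted p = 0.0634) and Fbln2 gained one (−1.01, adjusted p = 0.00392), as it did with total-count scaling (−0.75, adjusted p = 0.0309). The cause was not tested.

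Pair-fed against vehicle, where nothing passed, changed sign in replicates 1 to 3 for Eln (0.0361), Mfap4 (0.00149) and Lamc1 (0.0226) and in replicates 4 to 6 for Hspg2 (0.0469). Leaving out 1 sample gave Eln −0.52 to 0.0606, Lamc1 −0.12 to 0.0208 and Hspg2 −0.12 to 0.0662. Ratios that did not pass changed sign when 1 sample was left out. Against vehicle, Eln/Fbn1 ran from −0.12 to 0.0744 and Fbln2/Fbln5 from −0.10 to 0.26. Against pair-fed, they ran from −0.0639 to 0.21 and from −0.0767 to 0.28. For pair-fed against vehicle, Eln/Fbn1 ran from −0.24 to 0.0331, Fbln2/Fbln5 from −0.17 to 0.0492, Lamb1/Lamb2 from −0.00775 to 0.14 and Lamb1/Lamc1 from −0.12 to 0.00051. Lamb1/Lamb2 against pair-fed ran from −0.47 to −0.35.

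Replicate numbers are shared between groups. Same-numbered samples had mean correlations of −0.05, 0.03 and 0.21 in the 3 comparisons, and 0, 2 and 1 of 6 samples were closest to their own number. In no comparison was every pair over 0.1, so samples were not treated as pairs. In pair-fed against vehicle every same-numbered correlation was above 0 (0.03 to 0.61), beside a mean of −0.04 for other numbers. Whether samples of 1 number shared handling was not tested. With the replicate block the counts of genes called stayed at 4 and 3, and the ratio differences were −1.30 and −1.04 for Nid1/Nid2 and −0.36 and −0.40 for Lamb1/Lamb2 (exact sign-flip test, adjusted p = 0.117, where the smallest p is 0.0312 before adjustment). Covariation with TMM scaling or a pseudocount of 5, chosen after seeing the data, moved no r below its threshold and brought 3 further pairs past it.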
